A study of Canis lupus familiaris with 10 samples.

Results

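The endoplasmic reticulum (ER) is where secreted and membrane proteins enter the secretory path and fold. The 36 genes described here encode its chaperones, its folding enzymes and the parts of the unfolded protein response. They were chosen by name, with earlier results of these data known, and fell into 6 lists. There were 16 chaperones and folding enzymes, 6 sensors and transcription factors and 5 genes of the PERK-ATF4 output. The others were 4 genes of ER-associated degradation, 3 genes of the translocon and 2 collagen chaperones. The array annotation named 35 of the 36, of 15115 genes that it named in all, and CRELD2 was the gene without a named probe set. Where a gene had several probe sets, the probe set with the highest mean over all dogs stood for it. Of the 35 genes, 34 passed the filter on low signals, and ERN1 did not.

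The study asked whether the expression profile of hemangiosarcoma, a malignant tumor of dogs with features of blood vessel cells, differs by breed. RNA came from cultured tumor cell lines of the spleen, frozen at the earliest passages at hand, and each of 10 dogs gave 1 array. The Golden Retriever group held 6 dogs (ChadG4, ChadG6, ChadG8, Frog, Journey and Tucker), of which ChadG6, Frog and Journey were listed by the study as females, and Frog and Journey were distant relatives. The non-Golden Retriever group held 3 dogs that the study lists as males: ChadP9, a Portugese Water Dog, Dal4, a Dalmation, and Joey, a Rottweiler by its title. The most variable probe set named for EIF2S3, whose signal split the other dogs by their listed sex, read 2.95 in Dal4, near the females (3.08 to 3.33) and far from the remaining males (10.15 to 10.60). DD1, a Golden mix, stood outside both groups. The labels name no treatment of the cells. Since every culture had a single array, the SDs below hold the spread between dogs together with errors of culture and array, and a difference between single dogs could not be tested. The p-values of the breed comparison rest on this joint spread, and those of gene pairs on permuting the dogs.

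When unfolded proteins gather in the ER, 3 sensors in its membrane respond. ERN1 (IRE1) splices the messenger of XBP1, ATF6 is cut to free a transcription factor, and EIF2AK3 (PERK) slows translation and lets ATF4 be made. XBP1 and ATF6 raise chaperones and degradation factors, and ATF4 raises genes of amino acid supply and, through DDIT3 (CHOP), genes tied to cell death. Tumor cells that secrete much matrix are known to lean on these chaperones. The arrays measured transcript levels alone, so splicing, cleavage and phosphorylation were not seen here.

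The labelled tumor type was set against cell type markers. Of 13 endothelial markers, 7 passed the filter, which lay at a log2 signal of 5.03 to 5.16 on the arrays. PECAM1 ran from 4.03 to 4.72 and did not pass, VWF ran from 4.75 to 6.08 and did not pass, and CDH5 ran from 5.15 to 5.41. KDR (VEGFR2) was above the filter in each dog, from 6.51 to 8.25. Of 12 fibroblast and mural markers 11 passed, with COL1A1 between 12.84 and 13.63. Of 12 macrophage and T cell markers 8 passed, with SDs over the dogs from 0.0867 to 1.38 (median 0.194). PTPRC (CD45), between 4.60 and 4.96, was among those that did not pass. The highest signal among these 12 markers ran from 8.18 in Dal4 to 8.85 in ChadG8. Of 10 plasma cell and B cell markers 6 were named and 2 passed. Fewer cells of a type and less RNA per cell cannot be told apart in such cultures. Dal4 and ChadG4 stood apart from the other dogs, with the lowest correlations with the median array, 0.935 and 0.941, against 0.962 to 0.986 in the other 8. The matrix gene LUM was at 4.40 in Dal4 against 12.47 to 14.08 elsewhere, and ACTA2 was at 6.39 in ChadG4 and at 9.73 in Dal4 against 12.69 to 14.13 elsewhere. Results that rest on these dogs are given with and without them.

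Most of the chaperones varied together from dog to dog. They were lowest in Dal4 and highest in Joey and Journey. Over the 15 chaperones and folding enzymes measured, the mean log2 deviation from each gene's own mean over the 10 dogs was -0.70 in Dal4, 0.39 in Joey, 0.36 in Journey and 0.18 in Tucker. In the other 6 dogs it lay between -0.16 and 0.05. Dal4 had less than the gene mean for 15 of 15 genes and the lowest signal of all dogs for 13 of 15, whereas over all 11126 genes tested it was lowest for 17.0% and highest for 20.7%. Joey was above the gene mean for 15 of 15 and highest for 6, against 12.2% of all genes tested. Both Joey and Dal4 belong to the non-Golden Retriever group. Of the 12 fibroblast and mural markers, Dal4 was below the gene mean for 7 and above it for 5, with a mean deviation of -0.79 in which LUM and ACTA2 had the widest gaps, and ChadG4 was below for 8 (-0.92). Of the 13 endothelial markers Dal4 was below for 11 (-0.34) and Joey for 10 (-0.40). Only 7 of these 13 passed the filter, so both counts hold markers with signals too low to be tested. The part of these markers in the chaperone levels was not tested.

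**Figure D1:**
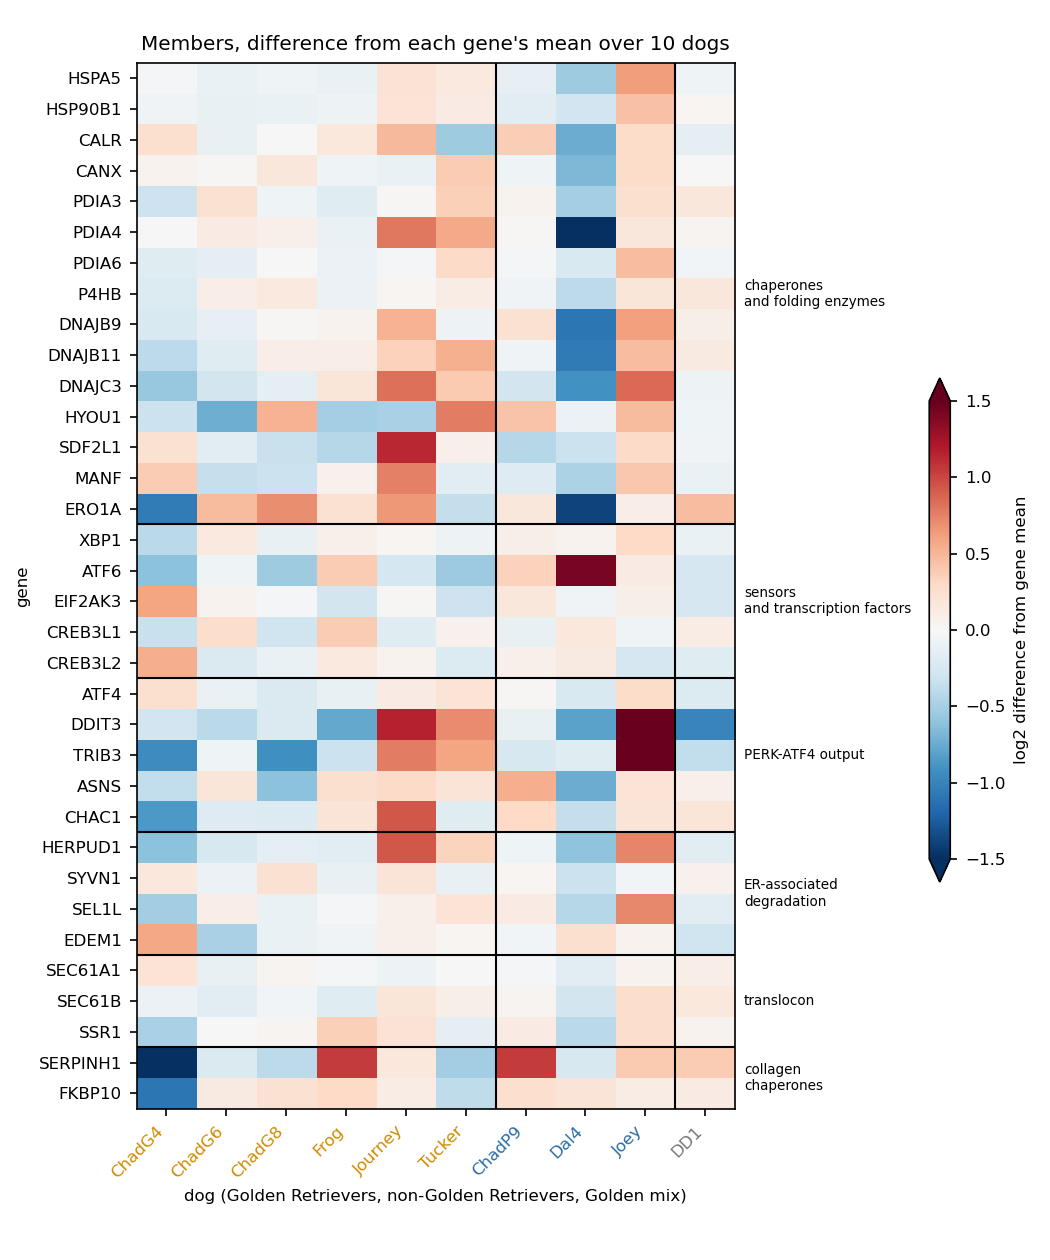
Heat map of the 34 genes tested (rows, grouped by list) in each of the 10 dogs (columns, grouped by breed), where color gives the log2 difference from the gene's mean over all dogs and differences past 1.5 in either direction share the darkest color. The Dal4 column is blue for all 15 chaperones and folding enzymes, and the Joey column is red for all 15.

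HSPA5 (BiP), the ER member of the HSP70 family, binds newly made chains and holds the sensors inactive. Its log2 signal was 13.40 in ChadG4, 13.32 in ChadG6, 13.35 in ChadG8, 13.32 in Frog, 13.64 in Journey, 13.57 in Tucker, 13.30 in ChadP9, 12.88 in Dal4, 14.05 in Joey and 13.35 in DD1. Joey and Dal4 were thus 2.25-fold apart, with 6 of the other 8 dogs between 13.30 and 13.40 and only Journey and Tucker above them. HSP90B1 (GRP94), the HSP90 of the ER, gave 13.12 in ChadG4, 13.06 in ChadG6, 13.07 in ChadG8, 13.09 in Frog, 13.37 in Journey, 13.29 in Tucker, 13.01 in ChadP9, 12.88 in Dal4, 13.61 in Joey and 13.20 in DD1. The order at both ends was that of HSPA5, with Joey, Journey and Tucker on top and Dal4 at the bottom, over a range of 1.66-fold.

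PDIA4, a disulfide isomerase, had 11.24 in ChadG4, 11.36 in ChadG6, 11.32 in ChadG8, 11.14 in Frog, 12.03 in Journey, 11.81 in Tucker, 11.26 in ChadP9, 9.53 in Dal4, 11.41 in Joey and 11.28 in DD1. Dal4 lay 1.61 log2 units under the next lowest dog, the widest gap at the low end among the chaperones. ERO1A, the oxidase that recharges the disulfide isomerases, had 10.00 in ChadG4, 11.52 in ChadG6, 11.74 in ChadG8, 11.27 in Frog, 11.69 in Journey, 10.69 in Tucker, 11.22 in ChadP9, 9.66 in Dal4, 11.15 in Joey and 11.51 in DD1. It had the largest SD among the chaperones, 0.711 (n = 10), and here ChadG4 was low beside Dal4. DNAJC3, a co-chaperone of HSPA5, had 9.16 in ChadG4, 9.45 in ChadG6, 9.60 in ChadG8, 9.91 in Frog, 10.56 in Journey, 10.12 in Tucker, 9.45 in ChadP9, 8.82 in Dal4, 10.58 in Joey and 9.66 in DD1. Joey and Journey shared the top within 0.02 log2 units.

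The other 10 chaperones and folding enzymes had SDs from 0.188 (P4HB, the main disulfide isomerase) to 0.519 (HYOU1, the nucleotide exchange factor of HSPA5). HYOU1 and SDF2L1 were the genes of the list for which Dal4 was not the lowest dog, and they are named for that after their values were seen. HYOU1 was lowest in ChadG6 (7.07) and highest in Tucker (8.57). SDF2L1, which works with DNAJB11, was highest in Journey (11.92), by 0.85 log2 units over Joey, and lowest in ChadP9 and Frog (10.36 in both). Calreticulin (CALR) was highest in Journey (10.67) and calnexin (CANX) in Tucker (12.63), and both were lowest in Dal4 (9.43 and 11.57).

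**Figure D2:**
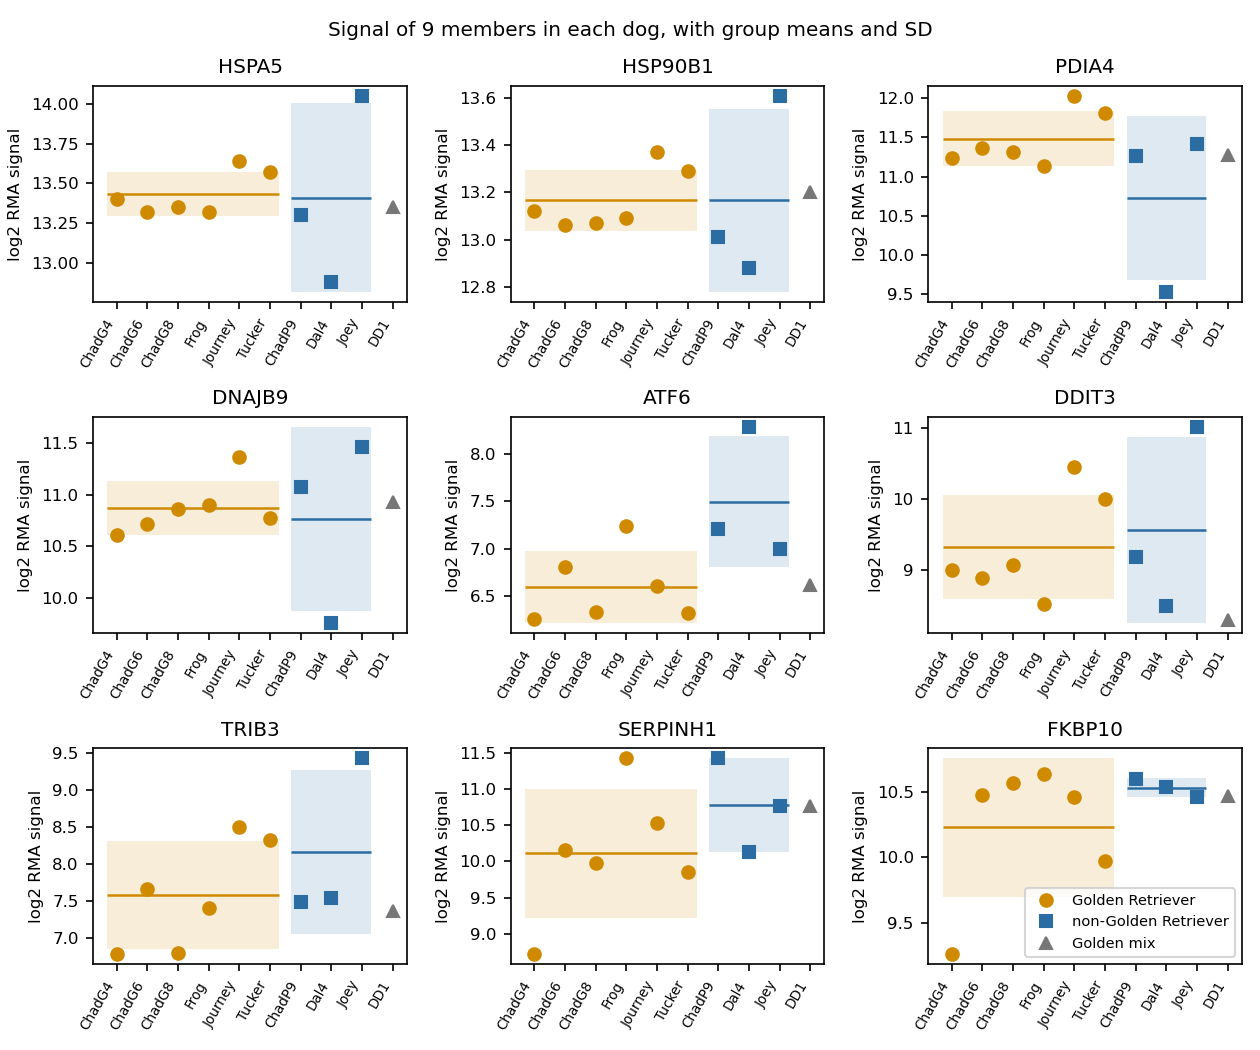
Log2 RMA signal of 9 of the genes in each dog, with the mean (line) and SD (shaded) of the 6 Golden Retrievers and of the 3 non-Golden Retrievers; each panel has its own axis, which does not start at 0. Dal4 is the lowest dog for HSPA5, HSP90B1, PDIA4 and DNAJB9 and the highest for ATF6, and Joey is the highest for HSPA5, HSP90B1, DNAJB9, DDIT3 and TRIB3.

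Genes of the PERK-ATF4 output had the widest spread of the larger lists, with a median SD of 0.475 over 5 genes against 0.399 for the chaperones and 0.314 over all genes tested. Joey, Journey and Tucker were again on top, with mean deviations of 0.82, 0.65 and 0.30, and Dal4, ChadG4 and ChadG8 were lowest, at -0.46, -0.45 and -0.44. Joey and Journey were above the gene mean for 5 of 5 genes, and Dal4 and ChadG8 were below it for 5 of 5.

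ATF4, the transcription factor of this arm, is set mainly by translation, and its transcript varied least in the list (SD 0.197, n = 10). Its signal was 13.36 in ChadG4, 13.02 in ChadG6, 12.90 in ChadG8, 13.01 in Frog, 13.24 in Journey, 13.32 in Tucker, 13.13 in ChadP9, 12.89 in Dal4, 13.39 in Joey and 12.91 in DD1. DDIT3, a transcription factor that ATF4 induces, had 9.0 in ChadG4, 8.88 in ChadG6, 9.07 in ChadG8, 8.52 in Frog, 10.44 in Journey, 9.99 in Tucker, 9.17 in ChadP9, 8.48 in Dal4, 11.01 in Joey and 8.29 in DD1. Joey, Journey and Tucker stood above the other 7 dogs, which did not exceed 9.17, and the range was 6.59-fold.

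TRIB3, a pseudokinase that ATF4 and DDIT3 raise, had 6.79 in ChadG4, 7.67 in ChadG6, 6.81 in ChadG8, 7.41 in Frog, 8.50 in Journey, 8.33 in Tucker, 7.49 in ChadP9, 7.55 in Dal4, 9.43 in Joey and 7.37 in DD1. The same dogs led, and the range was 6.24-fold. Asparagine synthetase (ASNS) had 11.96 in ChadG4, 12.51 in ChadG6, 11.71 in ChadG8, 12.57 in Frog, 12.62 in Journey, 12.52 in Tucker, 12.88 in ChadP9, 11.59 in Dal4, 12.53 in Joey and 12.41 in DD1. Here 7 dogs lay within 12.41 to 12.88, ChadP9 led, and Dal4, ChadG8 and ChadG4 were low. CHAC1, which breaks down glutathione, had 7.48 in ChadG4, 8.15 in ChadG6, 8.14 in ChadG8, 8.53 in Frog, 9.27 in Journey, 8.16 in Tucker, 8.64 in ChadP9, 7.98 in Dal4, 8.54 in Joey and 8.52 in DD1. For this gene Journey stood 0.62 log2 units above the next dog, while Joey was close to Frog and DD1.

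**Figure D3:**
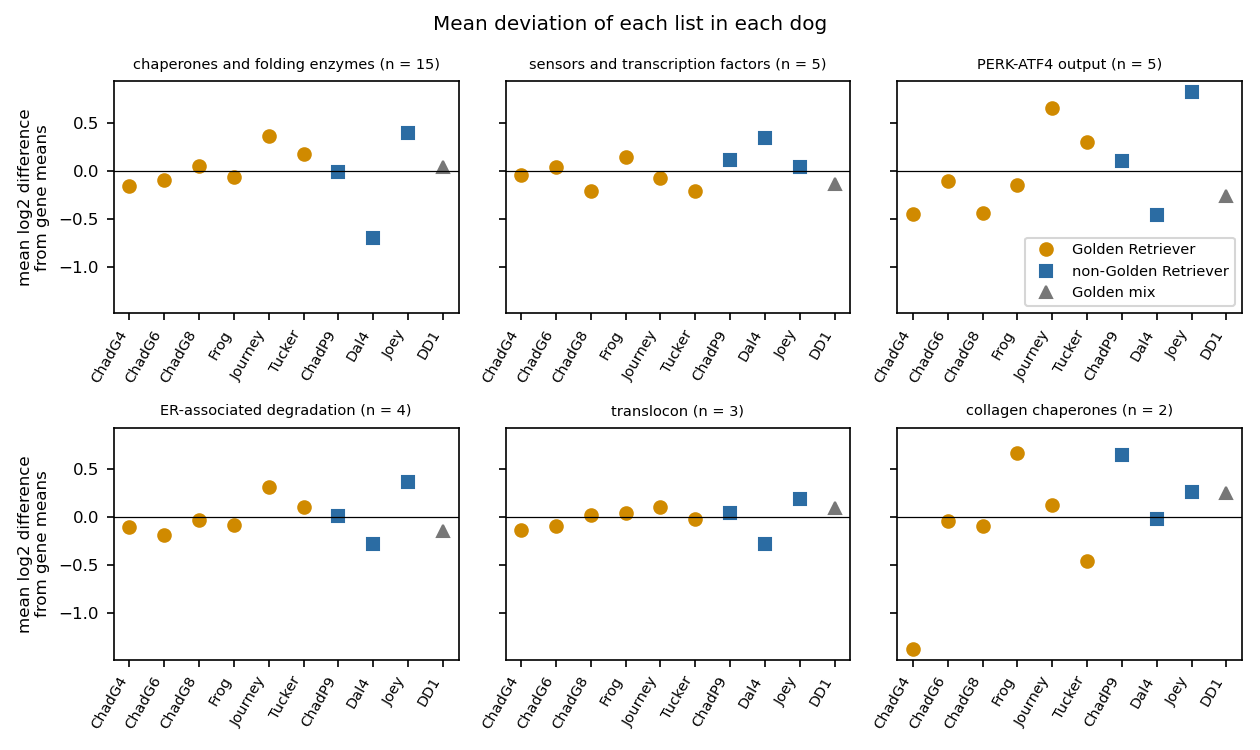
Mean log2 deviation from the gene means, for each of the 6 lists and each dog, on 1 shared vertical axis; n is the number of genes tested in the list. Joey and Journey are highest and Dal4 is lowest for the chaperones (0.39, 0.36 and -0.70) and for the PERK-ATF4 output (0.82, 0.65 and -0.46), while ChadG4 is lowest for the collagen chaperones (-1.37).

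The sensors and transcription factors did not share this order of dogs. Their mean deviation was highest in Dal4 (0.34, with 4 of 5 genes above the gene mean), where that of the chaperones was lowest. ATF6 was the gene of this list that was highest of all dogs in Dal4. The signal of ATF6 was 6.25 in ChadG4, 6.80 in ChadG6, 6.33 in ChadG8, 7.24 in Frog, 6.60 in Journey, 6.32 in Tucker, 7.21 in ChadP9, 8.29 in Dal4, 6.99 in Joey and 6.61 in DD1, so that Dal4 lay 1.05 log2 units above Frog, the next dog. EIF2AK3 had 8.99 in ChadG4, 8.45 in ChadG6, 8.37 in ChadG8, 8.12 in Frog, 8.41 in Journey, 8.09 in Tucker, 8.56 in ChadP9, 8.34 in Dal4, 8.48 in Joey and 8.14 in DD1. Only ChadG4 stood off from the rest, 0.43 log2 units above the next dog.

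XBP1 had 11.73 in ChadG4, 12.28 in ChadG6, 12.03 in ChadG8, 12.21 in Frog, 12.16 in Journey, 12.06 in Tucker, 12.22 in ChadP9, 12.19 in Dal4, 12.44 in Joey and 12.04 in DD1. Its SD of 0.188 (n = 10) was the smallest of the list. ERN1 had 4.75 in ChadG4, 4.78 in ChadG6, 4.93 in ChadG8, 4.90 in Frog, 5.07 in Journey, 4.27 in Tucker, 4.81 in ChadP9, 5.22 in Dal4, 5.85 in Joey and 4.98 in DD1, and its level was too low to be tested. CREB3L2, an ER membrane transcription factor of secretory cells, had 6.47 in ChadG4, 5.71 in ChadG6, 5.83 in ChadG8, 6.07 in Frog, 5.98 in Journey, 5.72 in Tucker, 6.00 in ChadP9, 6.06 in Dal4, 5.67 in Joey and 5.74 in DD1. It was highest in ChadG4, by 0.40 log2 units. Its relative CREB3L1 ranged from 7.21 in ChadG4 to 7.92 in Frog.

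Degradation genes divided. HERPUD1, a membrane protein of the degradation complex, had 11.48 in ChadG4, 11.86 in ChadG6, 11.95 in ChadG8, 11.94 in Frog, 13.03 in Journey, 12.43 in Tucker, 12.03 in ChadP9, 11.49 in Dal4, 12.83 in Joey and 11.94 in DD1. It had the dog order of the chaperones at the top, with Journey and Joey highest, and ChadG4 joined Dal4 at the bottom. SEL1L, the adaptor of the ubiquitin ligase SYVN1, had 11.20 in ChadG4, 11.83 in ChadG6, 11.63 in ChadG8, 11.70 in Frog, 11.80 in Journey, 11.93 in Tucker, 11.85 in ChadP9, 11.30 in Dal4, 12.44 in Joey and 11.57 in DD1. Joey was 0.51 log2 units above Tucker, and again ChadG4 and Dal4 were lowest. EDEM1, which leads misfolded glycoproteins to degradation, had 9.04 in ChadG4, 7.98 in ChadG6, 8.36 in ChadG8, 8.41 in Frog, 8.54 in Journey, 8.49 in Tucker, 8.42 in ChadP9, 8.70 in Dal4, 8.52 in Joey and 8.16 in DD1. Here ChadG4 and Dal4 were highest rather than lowest, but Journey and Joey came next, and ChadG6 and DD1 were lowest. SYVN1 varied little, from 7.52 in Dal4 to 8.07 in ChadG8.

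The translocon, through which new chains enter the ER, varied least. SEC61A1, its pore, had 12.79 in ChadG4, 12.47 in ChadG6, 12.63 in ChadG8, 12.57 in Frog, 12.51 in Journey, 12.59 in Tucker, 12.56 in ChadP9, 12.41 in Dal4, 12.64 in Joey and 12.68 in DD1. This was the smallest spread of the 34 genes (SD 0.107, n = 10). SEC61B had 12.87 in ChadG4, 12.80 in ChadG6, 12.92 in ChadG8, 12.77 in Frog, 13.14 in Journey, 13.05 in Tucker, 13.00 in ChadP9, 12.68 in Dal4, 13.22 in Joey and 13.12 in DD1. SSR1, a translocon-associated protein, had 11.05 in ChadG4, 11.55 in ChadG6, 11.58 in ChadG8, 11.90 in Frog, 11.76 in Journey, 11.39 in Tucker, 11.66 in ChadP9, 11.14 in Dal4, 11.80 in Joey and 11.59 in DD1. For SEC61B the dogs at the ends were Joey and Dal4, as for HSPA5, and for SSR1 they were Frog and ChadG4.

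The collagen chaperones were set apart by ChadG4. SERPINH1 (HSP47), which binds procollagen, had 8.72 in ChadG4, 10.16 in ChadG6, 9.98 in ChadG8, 11.43 in Frog, 10.53 in Journey, 9.85 in Tucker, 11.43 in ChadP9, 10.13 in Dal4, 10.77 in Joey and 10.76 in DD1. FKBP10, a prolyl isomerase of procollagen, had 9.26 in ChadG4, 10.48 in ChadG6, 10.57 in ChadG8, 10.64 in Frog, 10.46 in Journey, 9.97 in Tucker, 10.60 in ChadP9, 10.54 in Dal4, 10.46 in Joey and 10.47 in DD1. Both were lowest in ChadG4, by 1.13 and 0.71 log2 units under the next dog, and highest in Frog. Dal4 was near the gene mean for these genes (mean deviation -0.02). Among 9 collagen chains, which these chaperones serve, ChadG4 was below the gene mean for 5 and lowest of all dogs for 3. Its mean deviation there was -0.46, although its COL1A1 (13.44) was inside the range of the other dogs. Joey (-0.43, lowest for 3) and Dal4 (-0.41) were nearly as low for these chains. Their mean deviations for the collagen chaperones were 0.26 and -0.02.

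Between the breed groups no member changed past the adjusted test. In the limma fit over 26851 probe sets, 1 probe set (0.00372%) had an adjusted p under 0.05, and it belonged to 0 of the 34 genes. At an unadjusted p under 0.05 stood 1 of the 34, against 6.32% of all probe sets tested, and it was lower in Golden Retrievers, as were 4.51% of all (1.81% were higher). The groups overlapped for all 34 genes, whereas they did not overlap for 2.45% of all probe sets (0.790% with Golden Retrievers higher and 1.66% with them lower). Of the 34, 17 were higher and 17 lower in Golden Retrievers. With the non-Golden Retriever mean taken from the Golden Retriever mean, the median log2 difference of the 34 was 0.0013, against -0.02 over all probe sets tested.

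ATF6 was the gene past the unadjusted threshold. In the Golden Retriever group it averaged 6.59 ± 0.381 (SD, n = 6), and in the non-Golden Retriever group 7.5 ± 0.692 (SD, n = 3), with -0.91 as their log2 difference (SE 0.316, 95% interval -1.62 to -0.20, limma p = 0.0177, adjusted p = 0.774, exact permutation p = 0.0357). The smallest p that 84 splits of 6 dogs against 3 allow is 0.0119. Without Dal4 the difference of ATF6 was -0.51 (limma adjusted p = 0.999), and without Dal4 and ChadG4 it was -0.44 (limma adjusted p = 1.000). Over all settings tried its adjusted p ran from 0.368 to 1.00.

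For HSPA5 the Golden Retriever mean of 13.43 ± 0.139 (SD, n = 6) lay beside a non-Golden Retriever mean of 13.41 ± 0.592 (SD, n = 3), with a difference of 0.02 and an interval of -0.49 to 0.54. For PDIA4 the difference was 0.75 (interval -0.14 to 1.64, limma adjusted p = 0.782), and without Dal4 it was 0.15. For DDIT3 it was -0.24 (interval -1.54 to 1.07), for TRIB3 -0.58 (interval -1.77 to 0.62) and for SERPINH1 -0.67 (interval -1.82 to 0.49). The SERPINH1 difference was -0.34 without ChadP9, -0.39 without ChadG4 and -1.26 among the males. The intervals of the 34 genes reached a median of 0.604 log2 units to each side.

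**Figure D4:**
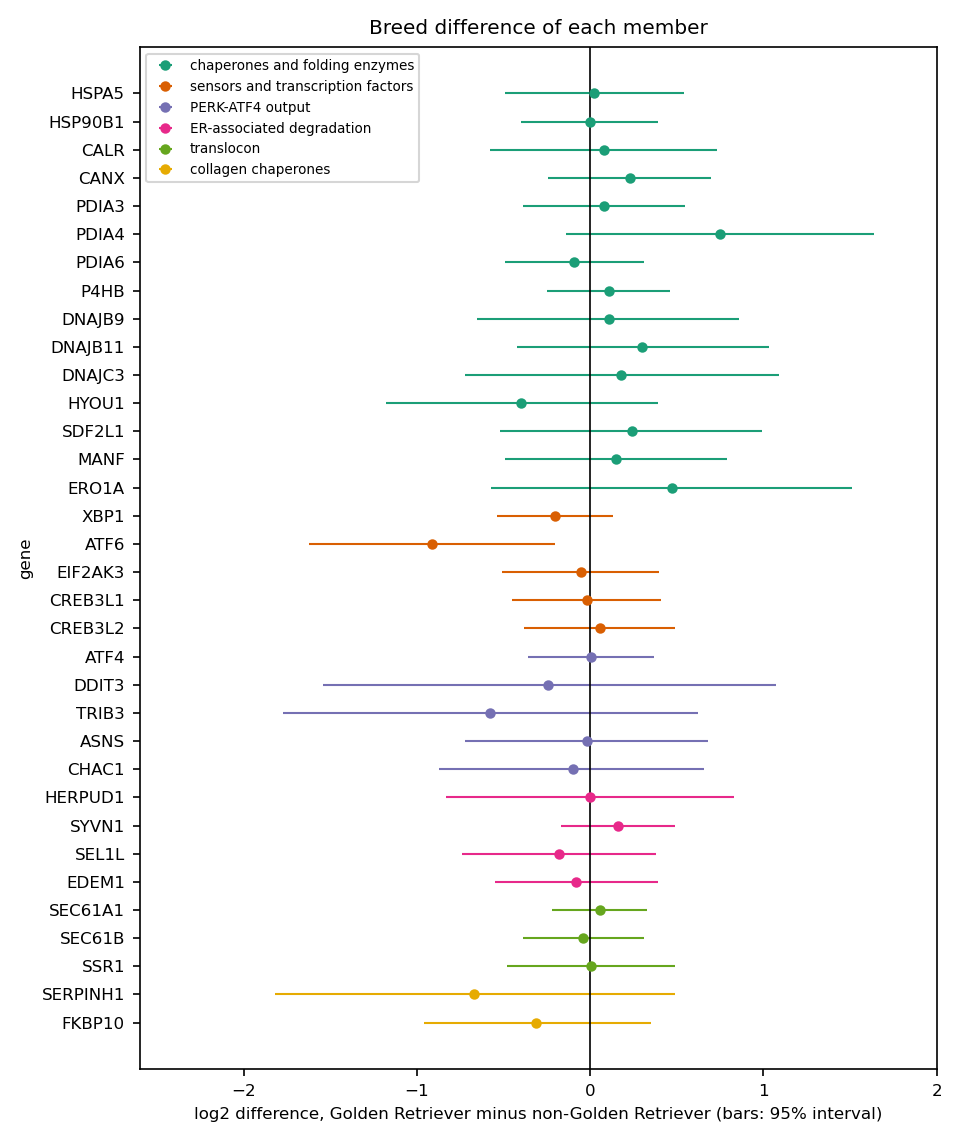
Log2 difference of each of the 34 genes between 6 Golden Retrievers and 3 non-Golden Retrievers (limma estimate and 95% interval, colored by list). The interval of ATF6 (-1.62 to -0.20) leaves out 0, and those of the other 33 genes include it.

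By list, the median difference was 0.11 for the chaperones (12 of 15 higher in Golden Retrievers), -0.05 for the sensors (4 of 5 lower), -0.10 for the PERK-ATF4 output (4 of 5 lower), -0.04 for degradation, 0.0034 for the translocon and -0.49 for the collagen chaperones (both lower). Leaving out the dogs at the ends moved these values, and the chaperone median was -0.14 without Dal4 and 0.40 without Joey. The PERK-ATF4 median was -0.39 without Dal4 and 0.08 without Joey. Spread within the groups was larger in the non-Golden Retrievers for 13 of the 15 chaperones, against 54.7% of all genes tested. Dal4 and Joey are both in that group.

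The dog-to-dog pattern was also read as co-variation. Over the 105 pairs of chaperones and folding enzymes, the median Pearson r across the 10 dogs was 0.63, and 62.9% of pairs had an r over 0.5. Over all pairs of tested genes the median was 0.0035 (quartiles -0.30 and 0.31), and 12.5% had an r over 0.5. Without Dal4 the chaperone median fell to 0.43 (all pairs 0.0044), and without Dal4 and ChadG4 it was 0.37 (all pairs 0.01). Within the PERK-ATF4 output the median over 10 pairs was 0.50, or 0.45 without both dogs. Between the chaperones and the PERK-ATF4 output it was 0.49 over 75 pairs, or 0.41 without both dogs. Each of these values is a description over the same 10 arrays, whose pairs share dogs.

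Chaperones also ran with the translocon (median r 0.47) and with degradation (0.44), but with Dal4 left out these were 0.22 and 0.27. With the sensors the median was -0.26, and -0.05 without Dal4. With the collagen chaperones it was 0.08, with 0.13 without Dal4, -0.09 without ChadG4 and -0.28 without both. HSPA5 had an r of -0.51 with ATF6, which was 0.02 without Dal4, and an r of 0.29 with XBP1, which was 0.47 without Dal4.

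Of 16 pairs computed, 5 passed a two-sided permutation test of Pearson's r after Benjamini-Hochberg adjustment, and 3 passed for Spearman's rho. Only 1 pair, HSPA5 with HSP90B1, passed both. The pairs were chosen with earlier results of these data known, which the p-values do not take into account. HSPA5 and HSP90B1 had an r of 0.97 (permutation p = 2.00e-05, adjusted 3.20e-04) and a rho of 0.94 (permutation p = 1.80e-04, adjusted 0.00288). Without Dal4 and Joey, the dogs farthest from the HSPA5 median, the r was 0.94, and it was 0.99 in the Golden Retrievers alone. HSPA5, from the chaperone list, and DDIT3, from the PERK-ATF4 list, had an r of 0.87 (permutation p = 6.30e-04, adjusted 0.00504) and a rho of 0.71 (permutation p = 0.0270, adjusted 0.0864). Without Dal4 and Joey their r was 0.89, and in the Golden Retrievers alone 0.98.

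DDIT3 and TRIB3 had an r of 0.84 (permutation p = 0.00314, adjusted 0.0126) and a rho of 0.60 (permutation p = 0.0745, adjusted 0.170), and the r was 0.44 without Journey and Joey, the dogs farthest from the median, so that over all 10 dogs the relation rests on these. Its r was 0.77 in the Golden Retrievers alone and 0.89 without Dal4 and ChadG4. HSPA5 and DNAJB9 had an r of 0.84 (permutation p = 0.00908, adjusted 0.0291) and a rho of 0.48 (permutation p = 0.165, adjusted 0.259), with an r of 0.41 without Dal4 and Joey, 0.61 in the Golden Retrievers and 0.75 without Dal4 and ChadG4. SERPINH1 and FKBP10 had an r of 0.82 (permutation p = 0.00139, adjusted 0.00741) and a rho of 0.61 (permutation p = 0.0663, adjusted 0.170), with an r of 0.49 without ChadG4 and Frog, 0.86 in the Golden Retrievers and 0.63 without Dal4 and ChadG4. ASNS and CHAC1 passed by rank, with a rho of 0.90 (permutation p = 7.90e-04, adjusted 0.00632) and an r of 0.65 (permutation p = 0.0431, adjusted 0.0985) that was 0.75 without ChadG8 and Dal4. HSPA5 and SDF2L1 did too, with a rho of 0.81 (permutation p = 0.00694, adjusted 0.0370) and an r of 0.58 (permutation p = 0.105, adjusted 0.211) that was 0.85 without Dal4 and Joey. HSPA5 and ASNS had an r of 0.49 (permutation p = 0.166, adjusted 0.266) and a rho of 0.21 (permutation p = 0.561, adjusted 0.599). HSPA5 and SERPINH1 had an r of 0.08 (permutation p = 0.837, adjusted 0.837) and a rho of -0.19 (permutation p = 0.608, adjusted 0.608). The remaining pairs also passed neither test after adjustment. Their r was 0.72 for HSPA5 and PDIA4, 0.29 for HSPA5 and HYOU1 and 0.30 for XBP1 and DNAJB9. It was 0.48 for ASNS and TRIB3, 0.41 for DDIT3 and CHAC1, 0.38 for ATF4 and ASNS and 0.45 for CREB3L1 and FKBP10.

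**Figure D5:**
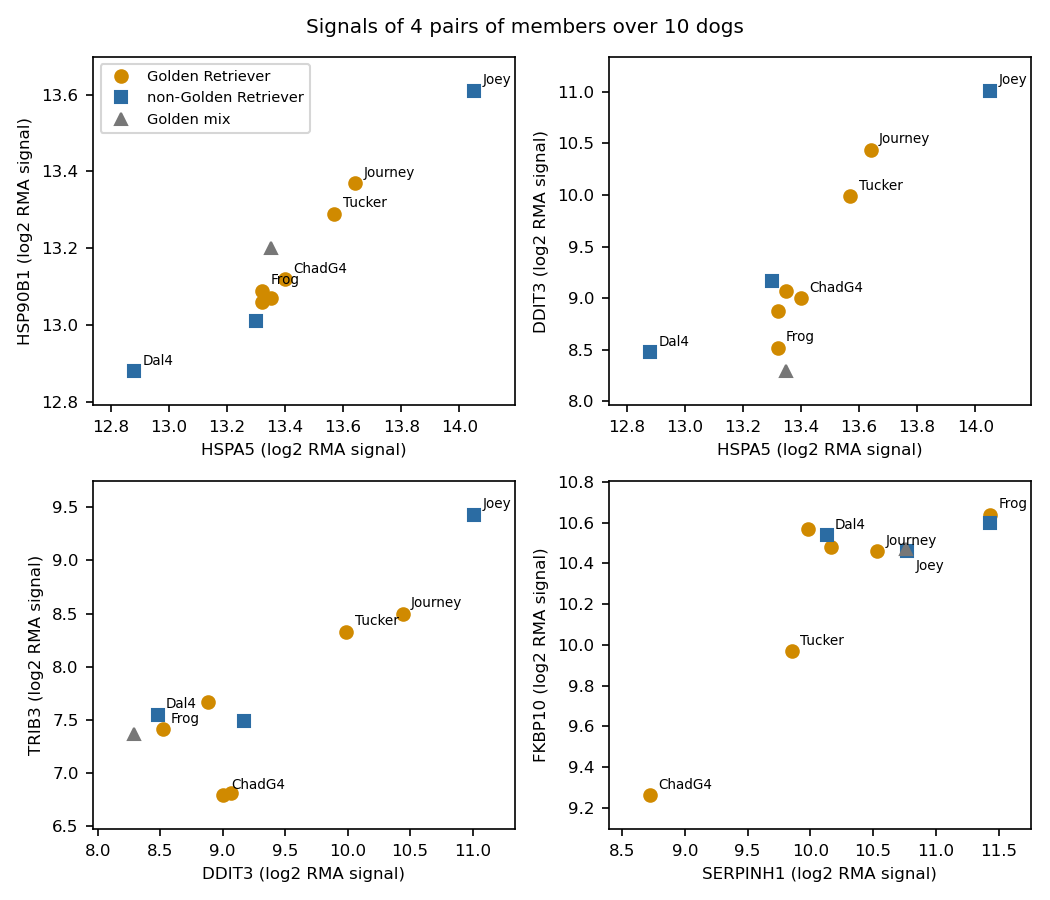
Log2 RMA signals of 4 pairs of genes, with 1 point per dog and marker shape and color by breed group. HSPA5 and HSP90B1 run along 1 line (r 0.97), Joey, Journey and Tucker lead in both HSPA5 and DDIT3 (r 0.87), and the pair SERPINH1 and FKBP10 is stretched by ChadG4 (r 0.82, and 0.49 without ChadG4 and Frog).

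Several probe sets of the same gene gave a check on the signals. Of 20 genes with more than 1 tested probe set, 13 had an r over 0.7 between the chosen probe set and each of the others, among them HSPA5 (0.96), HSP90B1 (0.98), DNAJB9 (0.98), MANF (0.99) and HERPUD1 (0.95). The other 7 included CANX, with an r as low as -0.06, SYVN1 (0.12), CALR (0.31) and PDIA6 (0.42), and their values depend on the probe set chosen. The breed difference had both signs among the probe sets of 7 of the 20 genes. DDIT3, TRIB3, ATF4, ATF6 and SERPINH1 each had 1 probe set, so their values have no such check.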

How the data were processed

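Total RNA of cultured cells from 10 dogs was labelled and hybridized to Affymetrix Canine_2 arrays, 1 per dog. The deposited values are log2 signals, which the authors made with robust multiarray average (RMA, from affy per the labels; versions are not given in the sources used here). RMA sets all arrays to the same distribution, so a shift shared by most genes would not be seen. Detection calls, and the study's filter on them, were not used here.

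From 43035 probe sets, 175 controls were left out. Of the other 42860, 29254 were annotated to 1 gene, 439 to several and 13167 to none, and genes were named only from the first kind. Tests covered the 26851 probe sets that exceeded the 40th percentile in 3 or more arrays. The chosen probe sets of 11126 genes were among them.

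Golden Retrievers (6) were compared with non-Golden Retrievers (3) in limma 3.58.1 (R 4.3.3), two-sided with Benjamini-Hochberg adjustment over all tested probe sets. The Golden mix was left out of this fit. The limma fit was tested on simulated data. Pairs of genes were tested by permutation over dogs (Python 3.11.15, numpy 2.4.6), and figures were drawn with matplotlib 3.10.9. The number of arrays limits the precision.

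Values in every dog are given for genes with an unadjusted p under 0.05 or groups that do not overlap, for the 3 genes of each list with the largest SD, and for HSPA5, HSP90B1, XBP1, ATF6, ERN1, EIF2AK3, ATF4, DDIT3 and ASNS. From other pathway lists the 6 genes with the smallest p under 0.05 are named. The genes, the lists, the pairs and the marker lists were chosen with earlier results of these data known. Alternatives covered the filter, the test (the methods' t-test), scaling, the mixed dog, sex, single dogs, the probe set per gene and the rank correlation.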

Additional observations from a re-analysis of the deposited data

Results flagged for a closer look

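Among the 6 Golden Retrievers, SLC38A2 (an amino acid transporter that ATF4 induces, from the list of other ATF4 targets) had a signal of 10.99 in Frog, far from the other 5 dogs of the group, which ran from 10.06 to 10.34. The gap of Frog to the nearest dog was 0.697 of the range of the group, above Dixon's 95% critical value for 6 values. It was the 1 such value among 48 examined, which were the 35 member genes measured, 6 list means, TXNIP and the 6 genes named from the wider lists, and 0 of the 35 member genes had one. The other genes of the wider lists were not examined. Chance gives such a value in about 5% of groups.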

How the results depend on the processing

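No alternative brought any of the member genes under an adjusted p of 0.05. The count of probe sets under it (1) was 2 with the methods' t-test and 2 without Dal4 and ChadG4 together (chosen after seeing the data), 0 with DD1 as a non-Golden Retriever, and 1 to 2 with single dogs left out (2 without Joey). The count of members at an unadjusted p under 0.05 (1) was 0 with DD1 as a non-Golden Retriever, 2 among males only, 0 without Dal4 and ChadG4, and 0 to 2 with single dogs left out (0 without Dal4, 2 without Joey). Dal4 counts as a male here by the study's list. The HSPA5 difference (0.02) was -0.23 without Dal4 and ChadG4 and ran from -0.24 to 0.34 with single dogs left out. The DDIT3 difference (-0.24) was 0.08 with DD1 as a non-Golden Retriever and ran from -0.77 to 0.49, and that of TRIB3 (-0.58) ran from -0.91 to 0.06. The median r within the chaperones (0.63) was 0.37 without Dal4 and ChadG4 and ran from 0.43 (without Dal4) to 0.66. By Spearman's rho over all 10 dogs this median was 0.47. The pairs past the adjusted Pearson test (5) were 3 by Spearman, 3 without Dal4 and ChadG4, and 3 to 4 with ChadG4, Joey or Dal4 left out (3 without ChadG4, 3 without Joey), alternatives chosen after seeing the data. The causes were not tested, beyond the fewer dogs where dogs were left out. Of 353 alternative values, 330 were counted as unchanged. A gene had to keep its sign and call, and a count had to stay within a fixed ratio. A list median had to move by less than the spread between dogs, and a median r by less than its leave-one-out error. These rules are loose. No named gene had a call to lose, and the chaperone median counted as unchanged at -0.14 without Dal4, against 0.11. The count of 330 is thus no measure of robustness. The breed comparison had no pairs, since each dog has 1 breed label and gave 1 array.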

Other observations

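Other genes of these paths, from lists wider than the 36, were also without a breed difference past the adjusted test. Over 134 tested genes of 6 such lists, 63 were higher and 71 lower in Golden Retrievers, 3 higher and 6 lower at an unadjusted p under 0.05, with a median log2 difference of -0.02. Over all 11126 genes tested, 187 were higher and 497 lower at that p, and the median was also -0.02. SLC38A2, an ATF4 target, had the smallest p: the Golden Retriever group averaged 10.31 ± 0.349 (SD, n = 6) and the non-Golden Retriever group 11.29 ± 0.394 (SD, n = 3) (difference -0.98, SE 0.244, limma adjusted p = 0.774). The other 5 by this rule, each with a limma adjusted p of 0.774, were ERLEC1, a lectin of ER degradation (0.53), KDELR3, a receptor that returns ER proteins (0.61), SRP72 of the signal recognition particle (-0.38), VLDLR, a lipoprotein receptor (1.92), and GANAB, a glucosidase of the ER (-0.47). VLDLR was at 5.13 in Dal4 against 8.72 to 10.13 elsewhere, and its difference was 0.67 without Dal4.

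The order of dogs was also read in the wider lists. Among 31 other ATF4 targets, Joey was above the gene mean for 26 (mean deviation 0.39) and Journey for 23 (0.25), while ChadG8 was below it for 23 (-0.27). Among 28 other genes of the translocon, signal peptidase and oligosaccharyl transferase, Joey was above the mean for 25 (0.25). Among 19 other ER folding factors Dal4 was below the mean for 14 (-0.24), and among 20 other genes of collagen folding and export for 19 (-0.52), where Joey too was below the mean for 17 (-0.19). The 22 other genes of ER-associated degradation did not have this order, with 12 above the mean in both Joey (mean deviation 5.8e-04) and Dal4 (-0.05), and among 14 other sensors and eIF2 kinases Dal4 had 0.21, Joey 0.05 and Journey -0.25. The heat shock proteins of the cytosol and mitochondria differed from these, and Dal4 was above the mean for 13 of 17 (0.13) and Joey for 10 of 17 (0.02). Among 9 collagen chains, Joey (-0.43) and Dal4 (-0.41) were both low, next to ChadG4 (-0.46).

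TXNIP, a thioredoxin-binding protein, was chosen after its values were seen. Its signal was 6.35 in Journey and 6.70 in Joey, the dogs with the highest DDIT3, against 8.66 to 10.64 in the other 8 dogs. Tucker, the next dog for DDIT3 (9.99), was among those 8. How many genes have such a split was not counted.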
